A study of Mus musculus with 3 samples.

Results

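Alpha and beta tubulin genes were described in UMI-RNAseq data from the mouse fibroblast line NIH3T3. The members were the 10 rows of the deposited FPKM table whose gene name was Tuba1a, Tuba1b, Tuba1c or Tuba4a (4 alpha genes) or Tubb2a, Tubb2b, Tubb3, Tubb4b, Tubb5 or Tubb6 (6 beta genes), out of 55573 genes listed. All 10 were found, and all 10 had a mean FPKM of at least 1, as did 12905 genes in all. FPKM divides the fragments counted for a gene by its length and by the library total. Comparisons between genes therefore depend on the length used, as described below. The cells were untreated, grown in DMEM with serum and antibiotics, and sequenced as 3 libraries of 1 condition, called libraries 1, 2 and 3 after their labels. Whether each library had its own culture is not given in the sources used here, so the SD (n = 3 throughout) may be technical. The libraries held 13959723 to 14423209 counted fragments, totals that were inferred from the FPKM values, as described below. NIH3T3 is a long-established line, so its levels describe that line and not fibroblasts in tissue.

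Microtubules are hollow polymers of a heterodimer of alpha and beta tubulin. Mammals carry several genes for each subunit, called isotypes, whose proteins are nearly alike in the folded body and differ mostly in the acidic carboxy-terminal tail. Cells control the amount of tubulin mRNA through the first residues of the nascent protein, which the factor TTC5 recognizes when free tubulin is in excess. The isotypes are known for their tissue ranges: Tubb5 (class I) and Tubb4b (class IVB) are made in most cells, Tubb3 (class III) is used as a marker of neurons, and Tuba1a is abundant in the developing brain.

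The sequences were read from the annotated transcripts of GENCODE M21 (GRCm38), with coding bases counted from 1 at the start codon. The first 12 coding bases are shown because they encode the residues through which tubulin mRNA is controlled. Capitals mark the codon that separates the alpha from the beta genes.
Tuba1a: atgcgtgagTGC
Tuba1b: atgcgtgagTGC
Tuba1c: atgcgtgagTGC
Tuba4a: atgcgcgagTGC
Tubb2a: atgcgcgagATC
Tubb2b: atgcgagagATC
Tubb3: atgagggagATC
Tubb4b: atgagggagATC
Tubb5: atgagggaaATC
The capital codon was TGC in the 4 alpha genes and ATC in the 5 beta genes shown. Tubb6 is given by its values alone.

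Among the alpha genes, Tuba1c and Tuba1b stood highest at like levels, followed by Tuba1a and then Tuba4a in each library. In libraries 1, 2 and 3, Tuba1c (ENSMUSG00000043091) stood at 165.7, 165.7 and 161.7 FPKM, averaging 164.4 ± 2.29 (SD). Tuba1b (ENSMUSG00000023004), the alpha isotype known as broadly expressed, had 158.3, 163.0 and 160.6 FPKM in libraries 1, 2 and 3, with a mean of 160.6 ± 2.38 (SD). The values of these leading genes overlapped between libraries, from 161.7 to 165.7 FPKM against 158.3 to 163.0. Within a library, Tuba1c exceeded Tuba1b by a factor of 1.05, 1.02 and 1.01, or 0.03 ± 0.03 (SD) on the log2 scale. That difference was about as large as its own spread, so no order between Tuba1c and Tuba1b is stated.

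Tuba1a (ENSMUSG00000072235) had 43.3, 42.7 and 43.7 FPKM in libraries 1, 2 and 3, with a mean of 43.2 ± 0.532 (SD). It lay below Tuba1b by a factor of 3.72 ± 0.0907 (SD), with no overlap between their values. Tuba4a (ENSMUSG00000026202) had 13.1, 11.4 and 12.3 FPKM in these libraries, averaging 12.3 ± 0.888 (SD). Tuba1a exceeded it by a factor of 3.54 ± 0.231 (SD), again with no overlap. The size of both gaps depended on the denominator, as described below, but their direction did not. The log2 ratio of Tuba1a to Tuba4a was 1.82 as deposited, 3.104 with the longest isoform and 4.795 with unshared words of 75 nt. That of Tuba1b to Tuba1a was 1.89 as deposited, against 1.096 with unshared words of 75 nt. Among the 12905 genes that reached a mean of 1 FPKM, Tuba1c ranked 632, Tuba1b 649, Tuba1a 3253 and Tuba4a 7610.

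The levels of the beta genes fell in the order Tubb5, Tubb6, Tubb4b, Tubb2a, Tubb2b, Tubb3 in each library. In libraries 1, 2 and 3, Tubb5 (ENSMUSG00000001525) stood at 682.0, 671.5 and 676.5 FPKM, averaging 676.6 ± 5.26 (SD), with a rank of 105. It was the highest of the 10 members and rested on 11951 to 12541 fragments per library. Tubb6 (ENSMUSG00000001473, class V) had 158.6, 153.5 and 156.2 FPKM in libraries 1, 2 and 3, with a mean of 156.1 ± 2.55 (SD) and a rank of 684. Tubb5 exceeded Tubb6 by a factor of 4.33 ± 0.0374 (SD). Tubb4b (ENSMUSG00000036752) followed with 124.5, 122.9 and 122.4 FPKM in the same libraries, a mean of 123.2 ± 1.09 (SD) and a rank of 922. Tubb6 exceeded Tubb4b by a factor of 1.27 ± 0.0153 (SD). That difference was larger than the spread between libraries, but its direction turned, to -0.22 on the log2 scale, when fragments were divided by unshared words of 75 nt, as described below.

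In the deposited FPKM, the class II, class III and class IVA isotypes, which are known from neurons, lay much lower. For Tubb2a the gap depended on the denominator. The log2 ratio of Tubb4b to Tubb2a was 2.20, against 1.05 with unshared words of 75 nt. Tubb2a (ENSMUSG00000058672, class IIA) had 25.0, 26.9 and 28.9 FPKM in libraries 1, 2 and 3, with a mean of 26.9 ± 1.97 (SD). Tubb2b (ENSMUSG00000045136, class IIB) had 9.13, 9.54 and 11.5 FPKM, with a mean of 10.1 ± 1.27 (SD). Both class II genes were highest in library 3 and lowest in library 1. Tubb2a exceeded Tubb2b by a factor of 2.69 ± 0.157 (SD). Tubb3 (ENSMUSG00000062380) had 4.98, 6.12 and 5.29 FPKM, with a mean of 5.46 ± 0.591 (SD), and rested on 95 to 113 fragments per library. It was the lowest member, below Tubb2b by a factor of 1.86 ± 0.31 (SD) with no overlap, and below Tubb5 by a factor of 124.8 ± 13.9 (SD). Tubb4a (class IVA), which is no member, had 1.74, 1.64 and 1.60 FPKM.

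**Figure D1:**
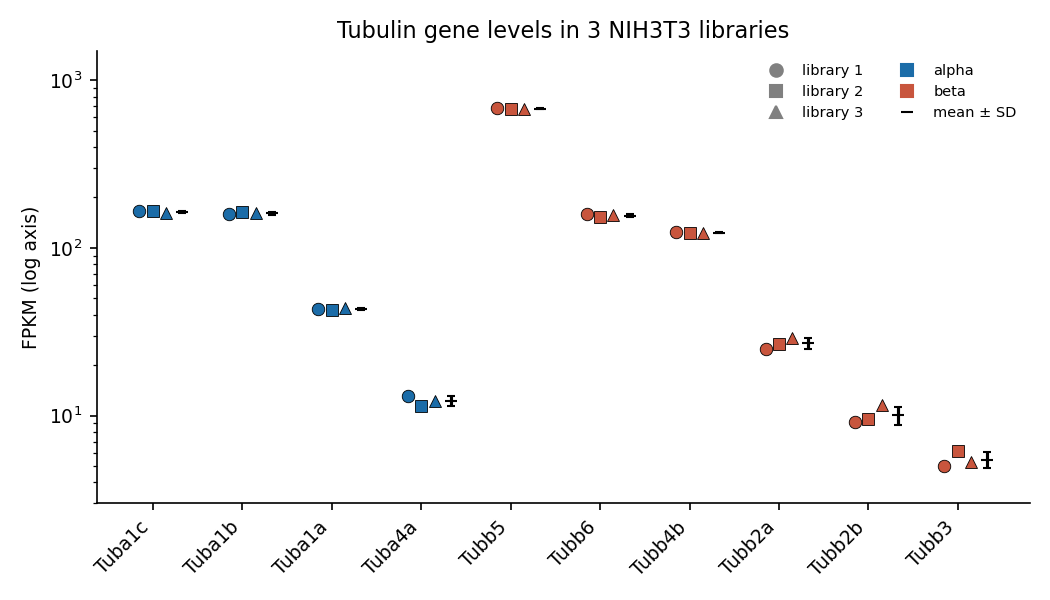
FPKM of the 10 tubulin genes on a log axis, with 1 symbol per library and the mean ± SD over 3 libraries beside them, alpha genes in blue and beta genes in red. Tubb5 stands at 676.6 FPKM, well above the other members, while Tuba1c, Tuba1b, Tubb6 and Tubb4b lie between 123.2 and 164.4 and Tubb3 lies lowest at 5.46.

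Within each library, 21 pairs were compared, 6 of alpha and 15 of beta genes. All 21 log2 ratios had the same sign in the 3 libraries. Flipping the signs of the ratios over libraries in an exact permutation test, two-sided, gave p = 0.25 for each pair and 0.25 after Benjamini-Hochberg adjustment over the 21 pairs. With 3 libraries no smaller p exists, and 0.05 was out of reach. With the exception of Tuba1c and Tuba1b, the values of neighbours in the order did not overlap between libraries.

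In the deposited FPKM, the alpha class was carried by a pair of genes and the beta class by a single gene. Their shares depended on the denominator. With unshared words of 75 nt, Tuba1b held 47.6%, Tuba1c 29.3% and Tubb5 50.2% of their classes. Of the summed alpha FPKM, Tuba1c made up 43.6%, 43.3% and 42.8% in libraries 1, 2 and 3, a mean of 43.2% ± 0.414 (SD). Tuba1b made up 41.6%, 42.6% and 42.5% in the same libraries, a mean of 42.2% ± 0.532 (SD). Tuba1a held 11.4% ± 0.205 (SD) and Tuba4a 3.22% ± 0.243 (SD), and both moved by over 1.5 times with other denominators. Of the summed beta FPKM, Tubb5 made up 67.9%, 67.8% and 67.6% in libraries 1, 2 and 3, a mean of 67.8% ± 0.164 (SD). Tubb6 held 15.6% ± 0.149 (SD) and Tubb4b 12.3% ± 0.101 (SD). The remaining beta genes held less, with Tubb2a at 2.70% ± 0.201 (SD), Tubb2b at 1.01% ± 0.126 (SD) and Tubb3 at 0.548% ± 0.0633 (SD). The share of Tubb2a depended on the denominator and reached 9.80% with unshared words of 75 nt. Shares of a class sum to 100% and so do not vary independently.

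**Figure D2:**
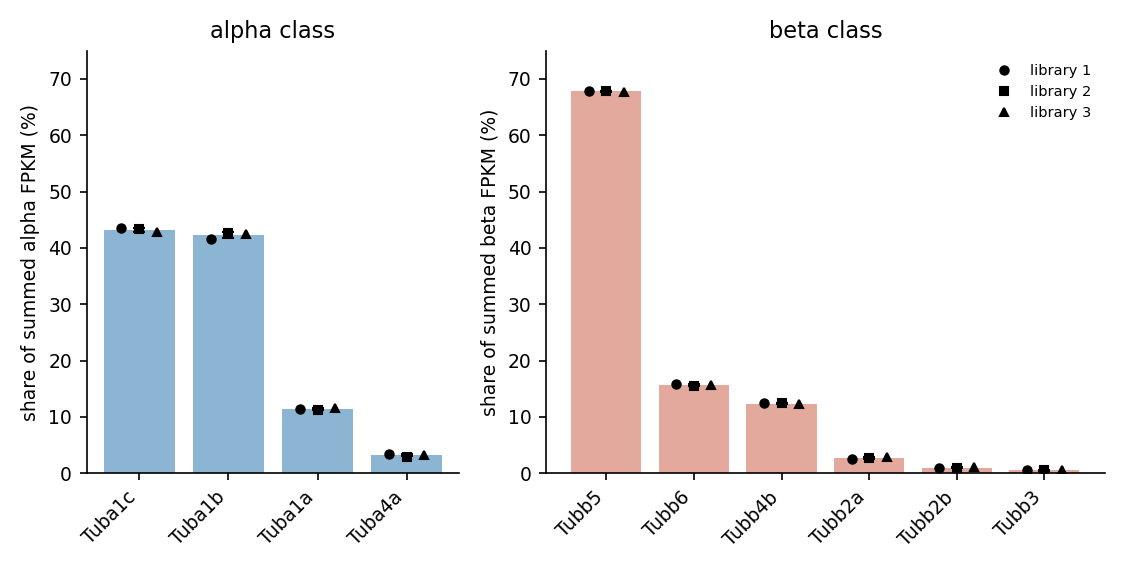
Share of each isotype in the summed FPKM of its class, in percent, as the mean over 3 libraries (bars, with SD) and as single libraries (symbols). Tuba1c and Tuba1b stand level at 43.2% and 42.2% of the alpha class, and Tubb5 alone takes 67.8% of the beta class.

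The alpha genes summed to 380.4, 382.8 and 378.4 FPKM in libraries 1, 2 and 3, a mean of 380.5 ± 2.21 (SD). The beta genes summed to 1004, 990.3 and 1001 FPKM, a mean of 998.4 ± 7.17 (SD). The beta sum was thus 2.64, 2.59 and 2.65 times the alpha sum, with a mean of 2.62 ± 0.0318 (SD) and a log2 ratio of alpha to beta of -1.39 ± 0.02 (SD). The difference was the same way in 3 of 3 libraries, and the same exact permutation test gave p = 0.25, the smallest it allows. Tubb5 alone exceeded the summed alpha genes in each library. This ratio reversed, to 0.740 times, when the length was counted as unshared words of 75 nt, as described below. With unshared words of 150 nt, the length of 1 read, it was 0.958 times.

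The alpha genes share far more sequence than the leading beta genes. The coding sequence of Tuba1a differed from that of Tuba1b at 23 of 1353 bases (98.3% identity), and Tuba1c was 97.9% identical to Tuba1b with 22 differing bases and a gap of 6. Tuba4a stood apart, at 84.8% to 85.2% identity to the Tuba1 genes. Among the 15 beta pairs, Tubb2a and Tubb2b were closest at 96.5%, with 47 differing bases, and the median was 83.4%. The 24 pairs of an alpha and a beta gene ranged from 52.4% to 55.4%.

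Stretches of 60 coding bases, each starting at a codon, were searched, leaving out the end of the coding sequence. Those in which the closest pairs differ the most are shown because they hold the most bases that tell 1 gene from the other. They cover coding bases 640 to 699 of Tuba1b and Tuba1a, and 112 to 171 of Tubb2a and Tubb2b. Capitals mark the bases that differ from the first gene of the pair.
Tuba1b: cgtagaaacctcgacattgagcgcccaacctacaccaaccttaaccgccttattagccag
Tuba1a: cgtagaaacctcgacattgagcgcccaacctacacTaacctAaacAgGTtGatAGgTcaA
Tubb2a: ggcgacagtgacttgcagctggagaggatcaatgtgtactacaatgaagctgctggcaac
Tubb2b: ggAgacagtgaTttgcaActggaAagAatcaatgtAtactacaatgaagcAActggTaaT
Each pair differed at 10 of the 60 bases, so 10 of the 23 differences between Tuba1a and Tuba1b fell into this single stretch.

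To describe shared sequence, the percentage was taken of 75-nt words of a transcript that also occur, on either strand, in an annotated transcript of another gene. Within the coding sequence of the principal isoform, 93.8% of the words of Tuba1b, 87.3% of Tuba1a and 84.9% of Tuba1c were shared. The percentage was 53.8% for Tubb2b, 52.7% for Tubb2a and 45.7% for Tubb4b. It was 0% for Tubb5, Tubb6, Tubb3 and Tuba4a. Words that touch a UTR were shared to 87.2% in Tuba4a, where Stk16 overlaps, to 27.4% in Tuba1b, 22.4% in Tuba1a and 17.9% in Tubb4b. They were shared to 0% in the other 6 members. With words of 150 nt, the length of 1 read, the coding percentages were 76.7% for Tuba1b, 66.8% for Tuba1a and 71.5% for Tuba1c, and again 0% for Tubb5, Tubb6 and Tubb3. How reads that match several genes were counted is not stated in the sources used here, and its part in the levels was not tested.

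**Figure D3:**
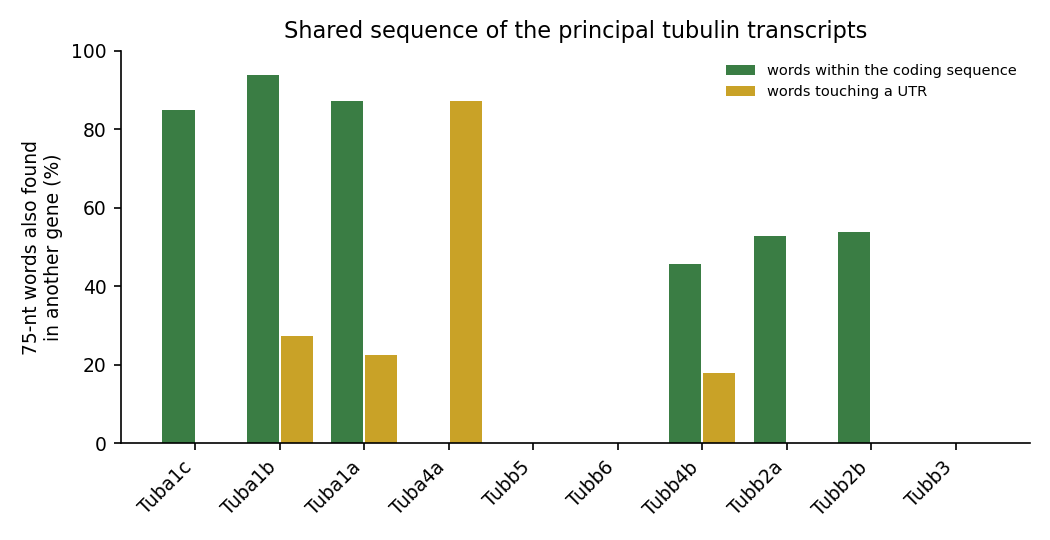
Percentage of 75-nt words of the principal transcript of each tubulin gene that also occur in another gene, for words within the coding sequence (green) and words touching a UTR (yellow). Coding words of the Tuba1 genes are shared to 84.9% or more, whereas Tubb5, Tubb6 and Tubb3 have no bar because they share 0%.

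Tubulin pseudogenes held at most 254 fragments in any library. The non-member genes that shared the most words with a member were Stk16, AC157548.1, Gm17383, Gm14150 and Gm3226. The lincRNA AC157548.1 (740 words shared) and the processed pseudogene Gm17383 (665 words) were listed at 0 in all 3 libraries. Reads of the shared words could have been left out in counting, so a listed 0 does not show that either is silent. The processed pseudogene Gm14150 (664 words) had 3.64, 3.17 and 4.44 FPKM in libraries 1, 2 and 3. Gm3226, another processed pseudogene, shared 602 words with Tuba1b and 551 with Tuba1c. It had 7.65, 13.6 and 6.61 FPKM, or 148, 254 and 127 fragments, and was highest in library 2. Gm49450, named after its values were seen, is annotated across Tuba1a and Tuba1b on their strand and was listed at 0. It is 899 nt long and shares 473 of the 1803 exon bases of Tuba1a and 426 of the 1875 of Tuba1b. Its exons thus lie within theirs, so its 0 does not show that it is silent. How reads of these bases were counted is not stated in the sources used here, which leaves the levels of Tuba1a and Tuba1b uncertain. The pseudogene Tubb4b-ps1 had 1.76, 1.29 and 1.52 FPKM, against 123.2 on average for Tubb4b. Tubb4b-ps2 and Tubb2a-ps2 had at most 1 fragment per library. Of the unnamed tubulin pseudogenes, AC132481.2 had 1, 7 and 0 fragments, AC116799.1 and AC127236.1 were listed at 0, and AC166150.1 had 0, 0 and 0.307 FPKM.

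Stk16, which encodes a kinase, lies opposite Tuba4a and shares 1379 of the 3701 exon bases of that gene. It had 50.4, 50.9 and 48.8 FPKM, above the 13.1, 11.4 and 12.3 of Tuba4a. No source used here says whether strand was used in counting, so reads of this overlap cannot be told apart and the level of Tuba4a is uncertain. Fam166a, on the strand opposite Tubb4b, shares 121 exon bases with it and had at most 0.608 FPKM in any library. It was also named after its values were seen.

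The Tuba1 genes and the class II beta genes lie in clusters on the genome, in coordinates of GENCODE M21 on GRCm38. All 10 members are protein coding in that annotation. On chromosome 15, Tuba1b spans 98931425 to 98934565 on the minus strand, and Tuba1a follows on the same strand from 98949837 to 98953703, a gap of 15271 bases. Tuba1c lies 76187 bases further, on the plus strand from 99029891 to 99038110. Tubb2a (34074274 to 34078007) and Tubb2b (34126748 to 34130466) are neighbours on the minus strand of chromosome 13, with 48740 bases between them. The other members lie alone, Tuba4a on chromosome 1 from 75214228 to 75219865, Tubb4b on chromosome 2 from 25222160 to 25224702, Tubb3 on chromosome 8 from 123411424 to 123422015, Tubb5 on chromosome 17 from 35833921 to 35838306 and Tubb6 on chromosome 18 from 67390717 to 67402749. The principal isoform of each member has 4 exons. Of the Tuba1 genes in this order, the outer genes Tuba1b and Tuba1c had like FPKM and Tuba1a between them had less. The deposited log2 ratio of Tuba1b to Tuba1a was 1.89 and that of Tubb2a to Tubb2b 1.42, against 1.096 and 2.57 with unshared words of 75 nt.

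The length behind an FPKM moved the isotype shares. For each member, the deposited FPKM gave whole fragments when multiplied by the mean length of the annotated isoforms. That mean is 1275 nt for Tubb5, whose 4 isoforms include 3 of 711 to 979 nt beside the principal isoform of 2649 nt. It is 1166 nt for Tuba4a, against 2840 nt for its longest of 8 isoforms, and 1803 nt for Tuba1a, which has 1 isoform. The longest isoform thus exceeded the length used by a factor of 2.44 for Tuba4a and 2.08 for Tubb5, but 1.00 for Tuba1a and Tubb2a. When the longest isoform was used as the length, Tubb5 held 56.7% ± 0.209 (SD) of the beta class in place of 67.8%. In the same setting Tuba1a held 16.2% ± 0.287 (SD) and Tuba4a 1.88% ± 0.142 (SD) of the alpha class, Tubb2a held 4.68% ± 0.344 (SD) of the beta class, and the ratio of beta to alpha fell to 2.15 ± 0.0261 (SD).

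Fragments were next divided by the number of distinct words of a gene over all its annotated isoforms, first with every word and then without shared words. Both settings were chosen once the values had been seen. With every word of 75 nt, which changes the length alone, the beta sum was 1.82 ± 0.0219 (SD) times the alpha sum. Tubb5 then held 56.2% ± 0.297 (SD) of the beta class, and Tubb2a 6.24% ± 0.448 (SD). Tuba1c, Tuba1b, Tuba1a and Tuba4a held 41.2%, 39.2%, 18.1% and 1.47% of the alpha class. Thus part of the fall from 2.62 came with the length, and the direction was kept.

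Without shared words of 75 nt, the order within the alpha class changed. Tuba1b held 47.6% ± 0.481 (SD), Tuba1c 29.3% ± 0.38 (SD), Tuba1a 22.3% ± 0.377 (SD) and Tuba4a 0.803% ± 0.062 (SD) of the alpha class. Tubb5 stayed the leading beta gene with 50.2% ± 0.417 (SD), and Tubb4b, at 20.2% ± 0.269 (SD), passed Tubb6, at 17.4% ± 0.248 (SD). Tubb2a held 9.80% ± 0.674 (SD) and Tubb2b 1.65% ± 0.197 (SD). The beta sum was then 0.740 ± 0.00896 (SD) times the alpha sum. With words of 150 nt it was 1.75 ± 0.0213 (SD) times with every word and 0.958 ± 0.0117 (SD) times without shared words. Removing shared words could be exact only if every read within them was left out of the counts, which the sources used here do not state. The reads were pairs of 150 nt, so a shared word of 75 nt need not hide which gene a fragment came from. How far unshared words of 75 nt understate the length that could be counted was not tested. The direction of the ratio of beta to alpha thus differed between these denominators, whereas Tubb5 stayed first in its class under each denominator tried.

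**Figure D4:**
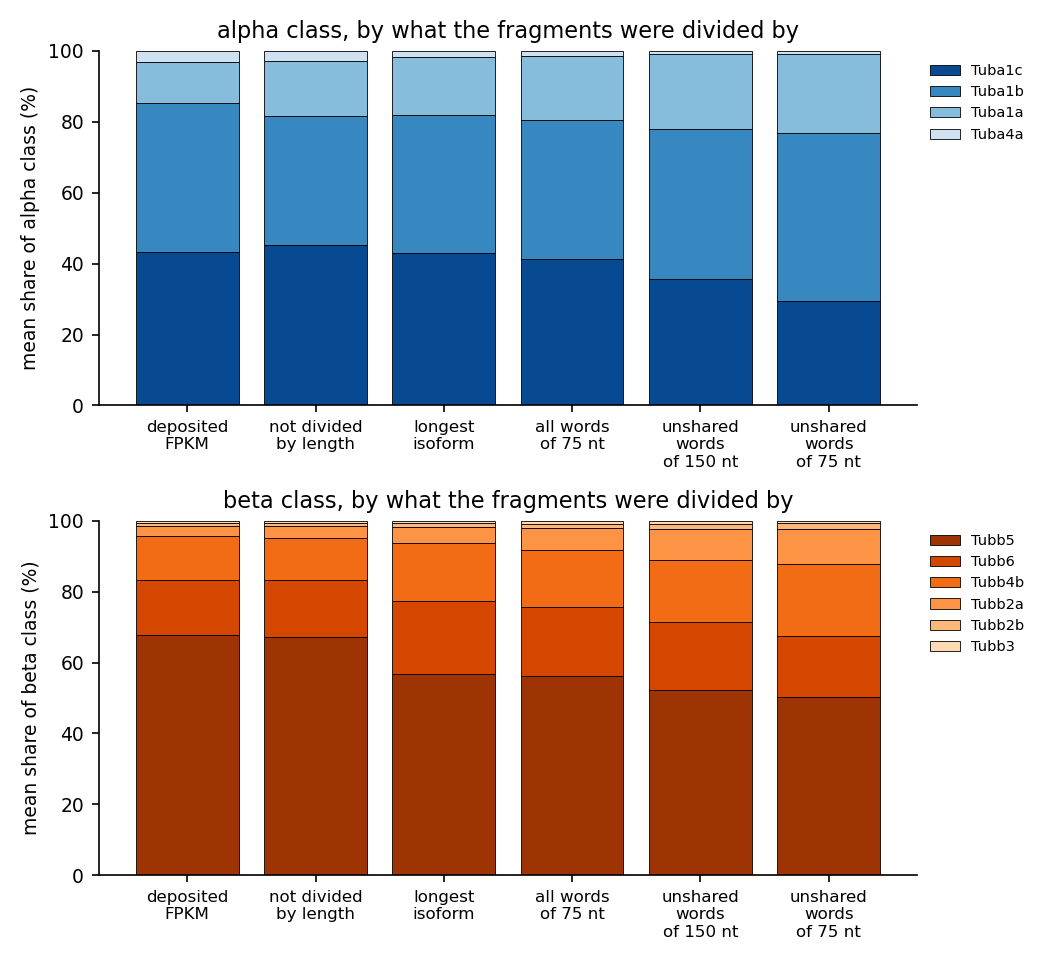
Mean share of each isotype in its class over 3 libraries, in percent, with the deposited FPKM and with fragments undivided or divided by the longest isoform, all 75-nt words, unshared 150-nt words or unshared 75-nt words. Tubb5 falls from 67.8% to 50.2% of the beta class but stays first, and Tuba1c falls from 43.2% to 29.3% of the alpha class and passes below Tuba1b.

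The coefficient of variation (CV) over libraries was 0.777% for Tubb5, against 0.903% that counting its fragments alone would give. For Tuba1c it was 1.39% against 1.76%, for Tuba1b 1.48% against 1.96%, and for Tubb6 1.63% against 1.84%. The CV was larger for low genes, up to 12.6% for Tubb2b against 7.31% from counting, and 10.8% for Tubb3 against 9.87%. Tubb2a came nearest to the limit of 2 times counting, with 7.31% against 4.03%, a factor of 1.82. Of the 9 members that averaged at least 10 FPKM, 0 exceeded that limit, as against 6.51% of the 8137 genes with such a level. With 9 genes, this count does not set the members apart from the rest. The median CV was 1.48% over these 9 members and 3.02% over the 8137 genes, and the median ratio to the counting CV was 0.861 and 0.929. Among genes of at least 100 FPKM, the median CV was 1.39% over 5 members and 1.70% over 1203 genes. No statistical test was run here, since the libraries are replicates of 1 condition.

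**Figure D5:**
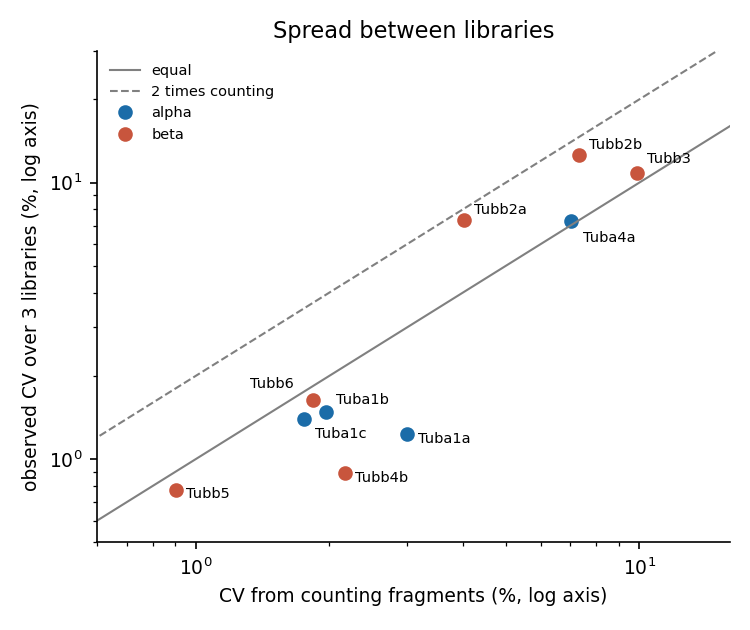
Observed CV of each tubulin gene over 3 libraries against the CV that counting fragments alone gives, both in percent on log axes, with lines at equality and at 2 times counting. All 10 genes lie below the dashed line, and Tubb2a (7.31% against 4.03%) and Tubb2b (12.6% against 7.31%) lie nearest to it.

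The other alpha and beta genes were nearly silent. Of Tuba3a, Tuba3b, Tuba8, Tubal3, Tubb1 and Tubb4a, only Tubb4a reached a mean FPKM of 1, at 1.66 ± 0.0737 (SD). Tubal3 had 1, 0 and 1 fragments in libraries 1, 2 and 3. Tubb1, the class VI isotype of platelets, and the testis and muscle isotypes Tuba3a, Tuba3b and Tuba8 had 0 fragments in each library. A count of 0 allows up to 3 fragments, or at most 0.153 FPKM for Tubb1 and 0.142 for Tuba3a in any library, for counting error only. Among the remaining tubulins, Tubg1, the gamma tubulin that nucleates microtubules, had 16.2 ± 0.132 (SD) FPKM, whereas its paralog Tubg2 had 0.120 ± 0.00205 (SD). Tube1 and Tubd1, the epsilon and delta tubulins of centrioles, had 3.53 ± 0.374 (SD) and 0.744 ± 0.0918 (SD) FPKM.

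The genes that make and arrange tubulin were broadly present. Over all genes listed, which include pseudogenes and lincRNAs, 23.2% had a mean FPKM of at least 1 and the median was 0. The same share over protein-coding genes alone was not taken. All 14 genes of the CCT chaperonin and prefoldin, which fold nascent tubulin and actin, reached 1, with a median of 166.0 FPKM. Cct5 was the highest at 658.8 ± 3.95 (SD), followed by Cct2 at 605.1 ± 4.44 (SD) and Cct6a at 392.7 ± 6.12 (SD), and Pfdn4 was the lowest at 26.0 ± 0.555 (SD). All 7 tubulin folding cofactor genes reached 1, with a median of 39.7, from Tbca, which binds folded beta tubulin, at 129.8 ± 4.83 (SD) to Tbcel at 15.03 ± 0.448 (SD). Tbcd and Tbcb, which act on beta and alpha tubulin, lay at 45.5 ± 1.22 (SD) and 42.1 ± 1.75 (SD) FPKM. The factors that degrade tubulin mRNA when free tubulin is in excess were also present, with Ttc5 at 27.7 ± 0.786 (SD), Cnot11 at 18.7 ± 1.43 (SD) and Scaper at 7.39 ± 0.224 (SD).

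All 9 listed genes of the gamma-tubulin ring complex and its partners reached 1 FPKM, with a median of 25.8. That list leaves out the gamma tubulin genes Tubg1 and Tubg2 given above, of which Tubg2 had 0.120 FPKM. Among the 9 listed genes, the highest levels were those of Mzt1 at 50.5 ± 0.979 (SD), Nedd1 at 37.3 ± 0.833 (SD) and Tubgcp2 at 31.9 ± 0.661 (SD). The lowest was that of Tubgcp5 at 13.4 ± 0.933 (SD). Of 27 genes for enzymes that modify tubulin, 18 reached 1, with a median of 5.32. Sirt2, a deacetylase, led with 60.8 ± 1.48 (SD), followed by the ligase-family gene Ttll4 at 37.6 ± 0.827 (SD) and the polyglutamylase subunit gene Tpgs1 at 31.9 ± 0.999 (SD), while Ttll10 was listed at 0. Of 32 genes for microtubule-associated and severing proteins, 23 reached 1, with a median of 24.6. Map4, a microtubule-associated protein of many non-neuronal cells, had 185.3 ± 4.47 (SD) FPKM, Map1b 152.1 ± 3.19 (SD) and Map7d1 94.4 ± 4.64 (SD), while Map7d3 was listed at 0.

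The labelled cell type was checked because the labels' extraction text mentions retinas. Of 12 fibroblast markers, 10 reached 1 FPKM, led by Fn1 at 4377 ± 86.1 (SD), Col1a2 at 1542 ± 11.7 (SD) and Vim at 1489 ± 14.0 (SD), while Lum was listed at 0. Of 15 neuron and retina markers, 0 reached 1 FPKM, and their sum was 0.461, 0.851 and 0.335 FPKM in libraries 1, 2 and 3. Snap25, Pde6b and Syp led that list with means of 0.194, 0.0784 and 0.0590 FPKM, and Nrl was at 0. Tubb3 and Tubb2b, the isotypes known from neurons, were measured at 5.46 and 10.1 FPKM in libraries in which neuron and retina markers were near 0. Of 4 epithelial markers, Krt14 alone reached 1, at 8.39 ± 0.291 (SD), Cdh1 had 0.442 ± 0.0766 (SD), and Epcam and Krt5 were at 0. Of 4 leukocyte markers, Cd68 alone did, at 2.12 ± 0.544 (SD), Ptprc had a mean of 0.0245, and Cd3e was at 0.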

How the data were processed

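The 3 NIH3T3 libraries were read as 150 nt pairs. Per the methods, Hisat2 mapped the reads that carried a UMI, copies sharing position and UMI were dropped, and HTSeq counted the rest by gene. The submitters' processing notes name UMI-tools 1.0.0, HISAT2 2.0.4 and HTSeq 0.6.1, and the counting build is not given in the sources used here. The authors deposited FPKM, 1 column per library, in 2 tables with identical values. Columns of values left unused numbered 0.

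No count model was used, because the deposited unit is FPKM. Fragments were recovered as FPKM times the mean isoform length of GENCODE M21, which 55480 gene IDs matched, times the library total. That total was inferred from genes with 1 isoform, as the total most often obtained if the FPKM stood for 1 fragment. The recovered fragments were whole within 0.01 in all 3 libraries for 99.2% of 26178 genes above 0. The recovery was also run on data simulated with the same lengths, which cannot test the choice of length. Ratios were tested within libraries with an exact sign-flip permutation test (scipy 1.17.1, Python 3.11.15), without a pseudocount. Coding sequences were aligned with Biopython 1.88, in place of a planned comparison of proteins, which were not analysed here. The last coding bases of the alpha genes and 1 leukocyte marker are not reported here.

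Members and lists were chosen with earlier results of these data known. Named genes were the members, the 3 highest and the lowest of each list, tubulin pseudogenes, and the 5 genes sharing the most words with a member; Gm49450 and Fam166a were added after their values were seen, as were Tuba3b, Tuba8, the words of 150 nt and words as a length. Intervals and floors cover counting error only. Alternatives were each library left out, TPM, median-of-ratios scaling, pseudocounts of 1 and 0.1, a minimum FPKM, wider classes, and other length denominators.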

Additional observations from a re-analysis of the deposited data

How the results depend on the processing

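Of 528 values under the alternatives, 428 kept their direction or stayed within 1 SD. Counts had a looser limit, so 19 of 21 pairs with unshared words of 75 nt also passed. Many of these values could not have changed, so the count does not measure stability. With a library left out, no mean can move by 1 SD, and no ratio of 1 sign in 3 libraries can reverse. Shares and ratios within a library cancel any scaling of that library, as in TPM and median-of-ratios scaling. The minimum of 1 FPKM removed no member. The reversals, 5 in all, arose where fragments were divided by unshared words, an alternative added after the data were examined, and none with every word kept. With words of 75 nt, the log2 ratio of alpha to beta was 0.43, that of Tuba1c to Tuba1b -0.70 and that of Tubb6 to Tubb4b -0.22. With words of 150 nt, the first became 0.0624 and the second -0.24. Shares under words of 75 nt were 47.6% for Tuba1b, 29.3% for Tuba1c and 50.2% for Tubb5, and under words of 150 nt 35.7% for Tuba1c and 52.4% for Tubb5. The alpha and beta sums were 551.4 and 1447 as TPM, 501.8 and 1285 as CPM, which is not divided by length, and 267.5 and 574.7 FPKM with the longest isoform. With every word of 75 nt, Tuba1b held 39.2%, Tuba1c 41.2% and Tubb5 56.2%, and with every word of 150 nt 39.3%, 41.1% and 55.0%. Without length, Tuba1b held 36.3%, Tuba1c 45.3% and Tubb5 67.2%. With the longest isoform, Tuba1b held 39.1% and Tubb5 56.7%. Adding the 6 other alpha and beta genes and the pseudogenes named or described as tubulin pseudogenes moved Tubb5 to 67.55% of its class. The processed pseudogenes Gm3226 and Gm14150, with means of 9.27 and 3.75 FPKM, were not among those added. Their weight in the alpha class was not tested. With a limit of 10 FPKM in place of 1, 11 of 27 modifying enzymes, 0 of 6 other alpha and beta genes, 1 of 4 other tubulins and 0 epithelial and 0 leukocyte markers passed. With 3 libraries, p could not fall below 0.25, and Tubb3 rested on 95 to 113 fragments per library. No paired analysis was possible because all libraries belong to 1 group and none could be matched across groups, and the ratios between genes were already taken within libraries.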
